A study of Mus musculus with 7 samples.

Results

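The 3 TGF-beta ligand genes Tgfb1, Tgfb2 and Tgfb3 and the 3 receptor genes Tgfbr1, Tgfbr2 and Tgfbr3 were followed across neural crest lineage cells of the mouse embryo. They were taken by symbol, and all 6 were found among the 32285 genes of the count tables. The cells came from 7 single-cell RNA-seq libraries, each made from pooled embryos of a mixed Swiss-Webster background in which Wnt1-Cre, active in the dorsal neural tube and the neural crest that leaves it, had switched on an EGFP reporter, and the EGFP-positive, DAPI-negative cells were sorted. The question of the design is how neural crest cells differ by stage, and when Tbx1, the transcription factor gene of the 22q11.2 deletion interval, is lost in the embryo.

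Control embryos were Wnt1-Cre/+;ROSA-EGFPf/+ and gave 1 library at E8.5 (rostral part of the embryo, with head and heart), 1 at E9.5 (pharyngeal region and heart, first arch and adjoining neural tube included) and 2 at E10.5 (second to sixth arches, heart and neural tube). Embryos titled Tbx1 null gave 1 library at E9.5 and 2 at E10.5 from the matching regions, on the same Cre and reporter background, but their genotype label reads Wnt1-Cre/+;Tbx1+/-;ROSA-EGFPf/+, whereas the study's own list of libraries has them as Wnt1-Cre/+;Tbx1-/-;ROSA-EGFPf/+. They are named here as the libraries labelled Tbx1 null. Tbx1 itself stood at 5.16 and 4.09 CPM (UMI counts scaled to the same total in each library or class) in the E10.5 controls, at 2.97 and 2.73 in their null counterparts, and at 0.732 and 0.642 at E9.5. A 3′ count can come from outside an altered part of a gene, so these levels check neither label. The kits were version 2 at E8.5, version 3 for the null E9.5 and the first null E10.5 library, and version 3.1 for the other 4 libraries.

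The TGF-beta ligands are secreted in a latent form, bound to a propeptide and held in the matrix by latent TGF-beta binding proteins, and are set free by integrins, thrombospondin or proteases. A freed ligand binds the type II receptor TGFBR2, which phosphorylates the type I receptor TGFBR1, and this in turn phosphorylates SMAD2 and SMAD3. The co-receptor TGFBR3 (betaglycan) presents ligand, TGF-beta 2 above all. In the pharyngeal arches and the outflow tract, neural crest mesenchyme builds connective tissue and the smooth muscle coat of the arch arteries, and TGF-beta is a known inducer of smooth muscle genes in such cells.

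In GRCm38 coordinates, Tgfb1 (ENSMUSG00000002603) lies at chr7:25687002-25705077 on the plus strand, Tgfb2 (ENSMUSG00000039239) at chr1:186622792-186705989 on the minus strand and Tgfb3 (ENSMUSG00000021253) at chr12:86056745-86079041 on the minus strand. Tgfbr1 (ENSMUSG00000007613) lies at chr4:47353222-47414931 on the plus strand, Tgfbr2 (ENSMUSG00000032440) at chr9:116084293-116175360 on the minus strand and Tgfbr3 (ENSMUSG00000029287) at chr5:107106570-107289629 on the minus strand. Of the 6 genes, 4 were matched in a RefSeq promoter table (GRCm38.p6): Tgfb1, Tgfb2, Tgfbr1 and Tgfbr2. The 250 bases before the transcript start of Tgfb1 and Tgfb2 are shown because these are the ligand genes that moved together in the smooth muscle comparison. They are written 5′ to 3′ on the gene's strand, and capitals mark matches, on either strand, to the letters GGGCGG, as in the GC box, TATAAA, as in the core of many promoters with a fixed start, CACGTG, as in the E-box, and CAGAC, as in the Smad half-site.
Tgfb1, chr7:25686752-25687001, plus strand: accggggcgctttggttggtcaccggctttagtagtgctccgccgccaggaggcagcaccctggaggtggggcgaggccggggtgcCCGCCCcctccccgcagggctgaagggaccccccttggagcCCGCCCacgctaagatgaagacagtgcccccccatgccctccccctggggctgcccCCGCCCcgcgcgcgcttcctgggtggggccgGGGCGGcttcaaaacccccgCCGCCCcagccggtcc
Tgfb2, chr1:186705990-186706239, minus strand: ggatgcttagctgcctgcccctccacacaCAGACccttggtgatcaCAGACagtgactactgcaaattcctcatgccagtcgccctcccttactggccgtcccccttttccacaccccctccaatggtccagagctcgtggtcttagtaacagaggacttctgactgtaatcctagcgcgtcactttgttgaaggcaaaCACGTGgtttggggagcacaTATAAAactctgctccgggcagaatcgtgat
The windows had little in common. That of Tgfb1 was 75.2% G or C, held 5 GGGCGG matches and no TATAAA. That of Tgfb2 was 53.6% G or C, held 1 TATAAA from base -31 to base -26, 1 CACGTG (its own reverse complement) from base -51 to base -46 and 2 CAGAC, and no GGGCGG. For Tgfbr1, a window of 74.8% G or C held 2 GGGCGG, and for Tgfbr2 a window of 58.4% held 1 CAGAC. The CArG box, the motif known from contractile genes, had no match in any of the 4 windows. Among 32851 promoters of the same length, 32.7% held GGGCGG, 12.4% TATAAA, 6.02% CACGTG, 42.2% CAGAC and 1.47% the CArG box.

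Cells were sorted into classes by a few genes, none of them a TGF-beta gene. A cell with 2 or more UMIs of Twist1, Prrx1 and Prrx2 together was called mesenchymal. Mesenchymal cells with 10 or more UMIs of Acta2 plus Tagln, both detected, formed the smooth muscle class, and the rest were split in order into Foxf1 cells, Hox 3 cells (a UMI of Hoxa3, Hoxb3 or Hoxd3), Hoxa2 cells and Hox-negative cells. Sox10 cells had 2 or more Sox10 UMIs and were not mesenchymal, and neural cells had neither but 2 or more UMIs of Sox1, Sox2, Sox3, Pax6, Elavl3 and Stmn2. The libraries held 140264662 to 234844769 UMIs in 5987 to 12047 barcodes, of which 69.7% to 93.3% passed the filters, with medians of 14836 to 22854 UMIs per kept cell and 0 to 44 barcodes in common between a pair of libraries. Mesenchymal cells numbered 2784 at E8.5, 5338 and 7075 in the control and null libraries at E9.5, and 3247, 6576, 3190 and 2199 in the 2 control and 2 null libraries at E10.5. The smooth muscle class held 5 cells at E8.5, for which no level is given, 42 and 46 at E9.5, then 72, 148, 49 and 57 a day later. Other smooth muscle genes (Cnn1, Rgs5, Myl9 and Myh11) summed to 632 to 1165 CPM there and to no more than 119 in any other class. Cardiomyocyte genes also stood high in some smooth muscle classes, at 1330 and 4118 CPM in the control and null libraries at E9.5 and at 1227, 13.9, 11.8 and 127.5 in the control and null libraries at E10.5, while the endothelial list reached 93.0, the blood list 15.4 and the macrophage list 2.19. The epithelial list summed to 205 to 616 CPM in the smooth muscle class through the keratin genes Krt8 and Krt18, with Cdh1 at 0 in all 6 libraries; its part in the results was not tested. Neural genes (Nes, Zic1, Tubb3 and Dcx) summed to 285.7, 343, 313 and 474.5 CPM in the smooth muscle class of the control and null libraries at E10.5. In all their mesenchymal cells the sums were 154.6, 89.0, 228 and 674, and the part of these genes was not tested. Cells with 2 or more UMIs of the cardiac genes Tnnt2, Myh6 and Actn2 were 3 of 42 and 9 of 46 at E9.5, and 4 of 72, 2 of 148, 0 of 49 and 3 of 57 at E10.5. Values given without cardiac or endothelial cells leave these out, together with cells of 2 or more UMIs of Cdh5 and Emcn.

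**Figure D1:**
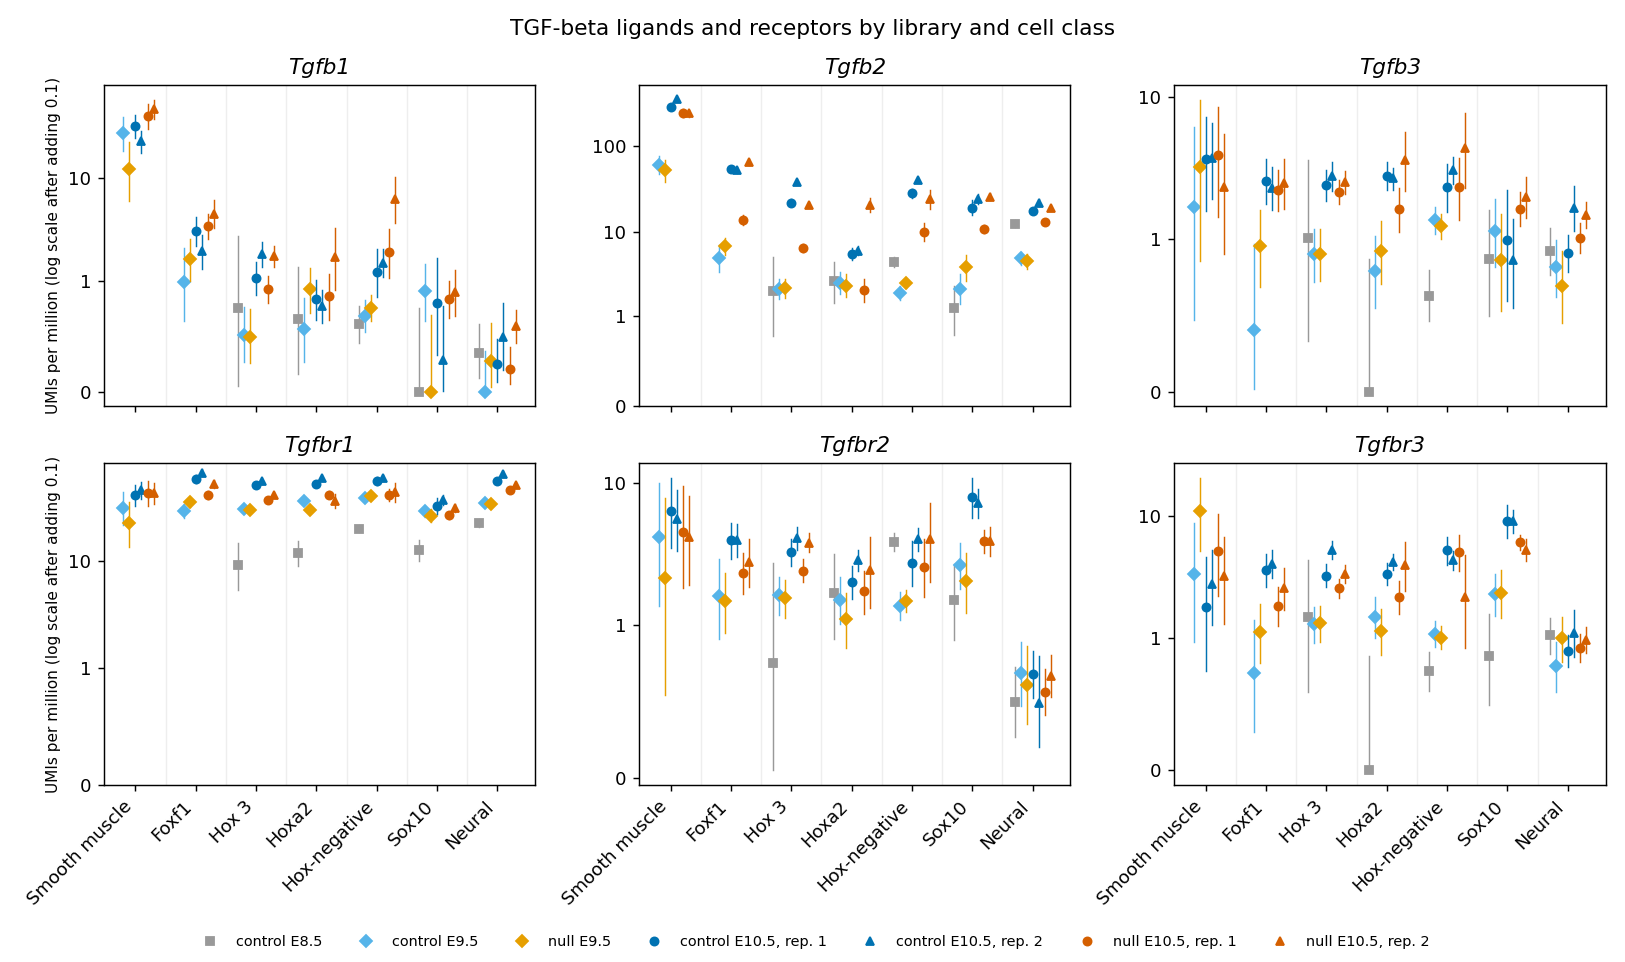
Level of each ligand and receptor gene in 7 cell classes (horizontal axis), in CPM on a log scale after adding 0.1; each point is 1 library and each bar its exact Poisson 95% interval, which covers counting error only. In the smooth muscle class Tgfb2 stood between 238.5 and 347 and Tgfb1 between 22.1 and 44.6 at E10.5, above every other class of the same libraries, and Tgfbr1 was found in every class.

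Tgfb2, the ligand gene whose loss is known to disturb the outflow tract and arch arteries, was far higher in the smooth muscle class than elsewhere. In the smooth muscle class its level was 60.6 and 52.5 CPM in the control and null libraries at E9.5 (71 and 48 UMIs), 280.1 and 347 in the E10.5 controls (606 and 1101 UMIs), and 239.3 and 238.5 in their null counterparts (364 and 503 UMIs). The lowest smooth muscle level at E10.5 lay above the highest level of any other class, which was 65.5, in Foxf1 cells. Against all other mesenchymal cells of the same 4 libraries, Tgfb2 was 14.6-fold higher at E10.5 (log2 fold change 3.87 ± 0.23 (SE), adjusted p = 1.1e-07 in edgeR's quasi-likelihood test with libraries as blocks). It was called under each of the 18 alternative settings, with log2 fold changes of 3.51 to 4.08. Its value was 3.90 ± 0.22 without the cells that held cardiac or endothelial UMIs, and the levels then read 68.7 and 58.3 for E9.5, then 301, 353, 239.9 and 242 for E10.5.

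Tgfb1, the founding ligand of the family, was higher in the same cells. Its smooth muscle level was 26.4 and 12.0 CPM in the control and null libraries at E9.5, 30.5 and 22.1 in the E10.5 controls, and 38.1 and 44.6 in the E10.5 null libraries. In all mesenchymal cells of the same libraries it was 0.704 and 0.696 at E9.5, then 2.08, 1.83, 2.00 and 3.85 a day later, and in neural cells it stayed at or below 0.312. The smooth muscle level was above that of each other class in every library, and at E10.5 the difference was 22.4-fold (log2 fold change 4.48 ± 0.20 (SE), adjusted p = 7.9e-09, edgeR), with 4.10 to 4.71 over the 18 alternatives. The E9.5 values rest on few cells: without cardiac or endothelial cells the control level fell to 17.4, from 17 UMIs in 38 cells, and the null level became 13.1.

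Of the 6 genes, 3 were called in the smooth muscle comparison, all of them higher, against 39.7% of all 13959 genes tested (18.9% higher, with 2645 genes higher and 2890 lower). The remaining call was the type II receptor Tgfbr2, at 4.27 and 2.19 CPM at E9.5, then 6.47, 5.68, 4.60 and 4.27 in the 4 E10.5 libraries, with a log2 fold change of 0.81 ± 0.28 (SE, adjusted p = 0.039, edgeR). It was lost in 8 of 18 alternatives, among them those without the first control library (0.64, adjusted p = 0.193), without the second control library (0.87, adjusted p = 0.099), without the first null library (0.75, adjusted p = 0.087) and with cells thinned to 5000 UMIs before classing (0.34, adjusted p = 0.544). The type I receptor Tgfbr1 (log2 fold change -0.11 ± 0.11, adjusted p = 0.472), the co-receptor Tgfbr3 (-0.12 ± 0.36, adjusted p = 0.836) and the ligand Tgfb3 (0.48 ± 0.32, adjusted p = 0.273) did not pass the test. Within the control libraries alone, Tgfbr1 was lower in the smooth muscle class (-0.33 ± 0.11, adjusted p = 0.0081, edgeR).

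At E10.5 the levels of both ligand genes were graded below and above the limit of 10 contractile UMIs. The plot of levels by contractile UMIs splits all mesenchymal cells by their Acta2 plus Tagln UMIs, and in the second control library at E10.5 Tgfb2 stood at 26.0, 50.7, 111.6, 170.6, 366.8 and 513.0 CPM in cells with 0, 1 to 2, 3 to 9, 10 to 29, 30 to 99 and 100 or more. In the first null library the values were 6.92, 16.2, 28.1, 88.5 and 194.8 in the 5 bins that could be read. The second null library broke the order once, between 127.5 and 109.6, and the null E9.5 library did so between 38.8 and 32.7 in its last 2 bins. Tgfb1 went from 1.15 in cells with no contractile UMI to 35.1 in the top bin of the second control library, and from 2.59 to 54.2 in the second null library. At E9.5 its order did not hold: the control library had 1.59, 7.68 and then 0 CPM in cells with 3 to 9, 10 to 29 and 30 to 99 contractile UMIs, the last from 0 UMIs in 23 cells. The 11 cells of that library with 100 or more, too few for a level, held 25 of its 71 mesenchymal Tgfb1 UMIs. Tgfbr1 had no such order. Deeper cells reach a higher bin more easily, and the levels are scaled to the UMIs of the bin.

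**Figure D2:**
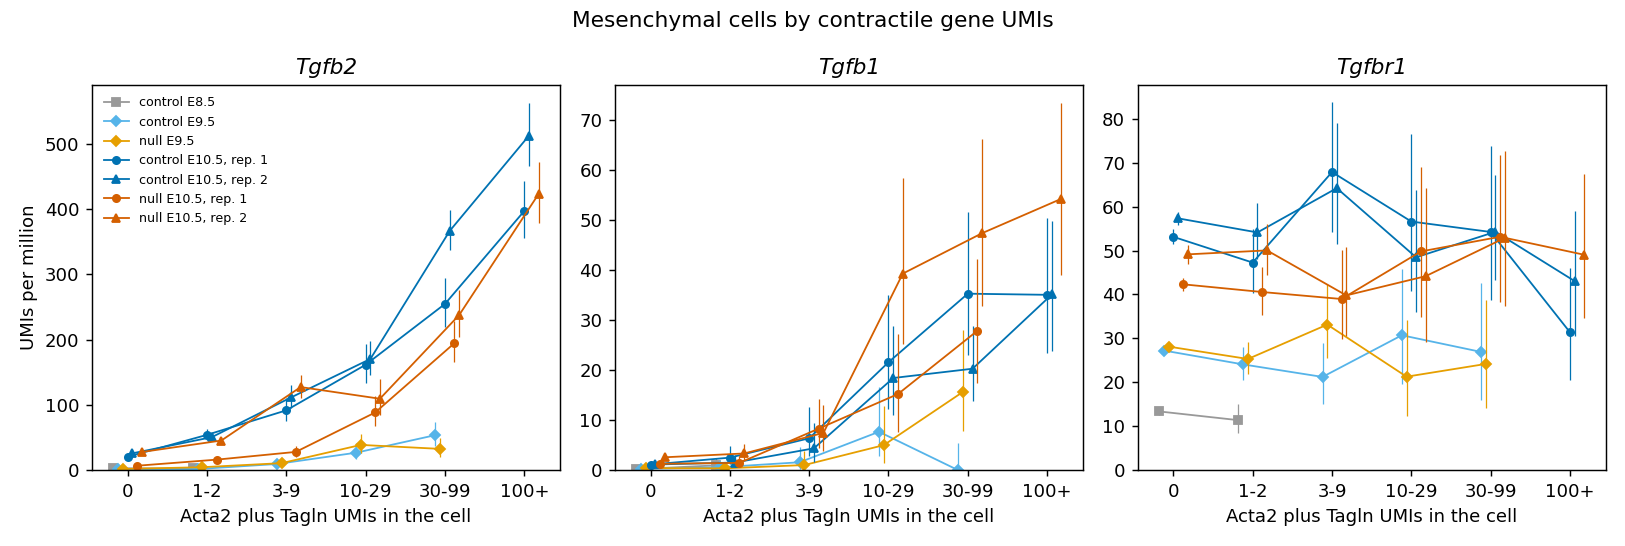
Level of Tgfb2, Tgfb1 and Tgfbr1 (vertical axis, CPM) in mesenchymal cells grouped by their Acta2 plus Tagln UMIs (horizontal axis); each line is 1 library and vertical bars are exact Poisson 95% intervals. Tgfb2 climbed from 20.7 to 397.3 in the first control library at E10.5 and from 28.0 to 423.3 in the second null library, with Tgfb1 climbing beside it in these libraries and Tgfbr1 showing no such slope.

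Because so few cells are in the smooth muscle class, its share of the ligand transcripts is a further way to show the gradient. These cells were 0.65% to 2.59% of the mesenchymal cells at E9.5 and E10.5. They held 23.0% and 11.6% of the mesenchymal Tgfb2 UMIs in the control and null libraries at E9.5, then 26.0% and 25.8% in the E10.5 controls and 35.9% and 22.8% in the E10.5 null libraries. For Tgfb1 the shares were 43.7% and 12.5% at E9.5, then 40.5%, 32.9%, 32.4% and 39.2% a day later. For Tgfb3, the ligand gene that was not called there, they were 1.85% to 3.86% over the same 6 libraries. The receptor genes were spread more evenly than Tgfb1 and Tgfb2, with 0.45% to 3.38% of the mesenchymal Tgfbr1 UMIs, 1.05% to 5.91% of those of Tgfbr2 and 1.38% to 6.54% of those of Tgfbr3 in the smooth muscle class.

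Counted by cells, after thinning each cell to 5000 UMIs, 68.1% and 69.4% of smooth muscle cells held a Tgfb2 UMI in the E10.5 controls, with 61.2% and 61.4% in the null libraries (91.7%, 91.2%, 77.6% and 91.2% before thinning). At E9.5 the shares were 35.7% and 25.0% (61.9% and 41.3% before thinning). In neural cells the thinned Tgfb2 share was 2.26% to 9.76% over the 7 libraries, and in all mesenchymal cells it was 1.09% to 13.5%. Over both stages a Tgfb1 UMI was found in 9.09% to 22.4% of thinned cells of the smooth muscle class and in 0% to 0.135% of neural cells.

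Outside the smooth muscle class, Tgfb2 was next highest in Foxf1 cells, which carry a forkhead factor gene known from the mesenchyme around the foregut. Tgfb1 was too, except in the second null library at E10.5, where Hox-negative cells stood at 6.33 CPM and Foxf1 cells at 4.57. There Tgfb2 stood at 5.02 and 6.90 CPM at E9.5, at 55.0 and 53.0 in the E10.5 controls, and at 14.1 and 65.5 in the 2 null libraries. Against the other mesenchyme outside the smooth muscle class, Tgfb2 was higher by 1.48 ± 0.11 on the log2 scale (adjusted p = 1.8e-04) and Tgfb1 by 1.45 ± 0.22 (adjusted p = 0.0039, edgeR), and both were called in all 15 alternatives. The genes Cnn1, Rgs5, Myl9 and Myh11 summed to 98.8, 93.3, 71.3 and 119 CPM in Foxf1 cells of the control and null libraries at E10.5. In Hox 3, Hoxa2 and Hox-negative cells the sums were 15.5 to 48.8. Their part in the Foxf1 difference was not tested. The 3 called members, all higher, compare with 18.2% of 13922 genes called (8.58% higher), and the third, Tgfbr1, at 0.21 ± 0.06 (adjusted p = 0.047), was lost in 10 of 15 alternatives, including those without the first control (0.23, adjusted p = 0.086), the second control (0.22, adjusted p = 0.096) or the second null library (0.17, adjusted p = 0.067).

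Split by Hox genes, Tgfb2 was higher in Hox 3 cells than in Hoxa2 cells. The paper finds Hoxb3 from the third arch backward and Hoxa2 from the second. Here the classes were set by a UMI and not by dissected arch, and Foxf1 and smooth muscle cells of any arch were taken out first. The Hox 3 levels were 22.2 and 38.4 CPM in the E10.5 controls, 6.55 and 20.9 in the E10.5 null libraries, and the Hoxa2 levels were 5.57, 6.15, 2.07 and 20.95. In the second null library the 2 classes stood at the same level. The log2 fold change was 1.67 ± 0.39 (adjusted p = 0.030, edgeR), and it missed the threshold without the first control library (1.50, adjusted p = 0.149), without the second (1.19, adjusted p = 0.084) or without the first null library (1.70, adjusted p = 0.106). Tgfbr2 was also called, at 0.56 ± 0.13 (adjusted p = 0.032), and was lost in 6 alternatives, those without any 1 of the 4 libraries among them (0.51 to 0.60, adjusted p = 0.053 to 0.179); 2 of 6 genes thus passed, both higher in Hox 3 cells, where 16.3% of 13816 genes did (8.86% higher). The neural genes Nes, Zic1, Tubb3 and Dcx summed to 298.8, 154.6, 332.3 and 876.3 CPM in the Hox 3 cells of the control and null libraries and to 85.1, 65.9, 103.2 and 226.2 in their Hoxa2 cells. With few neural UMIs allowed, a limit set after the data were seen, the Tgfb2 difference was 2.30 (adjusted p = 1.7e-04). Hox-negative cells had Tgfb2 levels of 28.3, 40.3, 10.3 and 24.2 at E10.5, above the Hox 3 cells of the same library in all 4, a difference that was not tested.

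Tgfb3, the ligand gene known for palate fusion, was not called between any of the mesenchymal classes. It stood at 1.07 and 1.10 CPM in E9.5 mesenchymal cells, then at 2.64, 2.82, 2.17 and 2.73 a day later. Its levels in the Foxf1, Hox 3, Hoxa2 and Hox-negative classes at E10.5 lay between 1.65 and 4.47, with no order that held in all 4 libraries. In neural cells it was 0.777, 1.68, 1.01 and 1.50 at E10.5, which is 2.20-fold lower than in mesenchyme (log2 fold change 1.14 ± 0.21, adjusted p = 0.0077, edgeR).

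Among the receptors, Tgfbr1 was detected in every class. In mesenchymal cells it stood at 35.5 and 35.2 CPM at E9.5 and at 49.8, 55.1, 37.6 and 40.4 in the control and null libraries at E10.5, and in neural cells at 33.2, 32.1, 51.6, 59.7, 43.2 and 48.3 in the same order. The mesenchymal and neural levels did not differ by the test (log2 fold change -0.13 ± 0.07, adjusted p = 0.161, edgeR). Sox10 cells, the crest cells on the way to glia and neurons, had 31.1, 35.4, 25.7 and 30.0 at E10.5, below the mesenchymal level of each library by 0.56 ± 0.06 on the log2 scale (adjusted p = 4.6e-04).

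Tgfbr2, without which the type I receptor does not bind TGF-beta 1, had another distribution. In neural cells it stayed at 0.223 to 0.413 CPM over the 7 libraries, in mesenchymal cells it stood at 1.59 and 1.50 at E9.5, then at 3.03, 3.70, 2.40 and 3.63 a day later, and in Sox10 cells it reached 7.98 and 7.29 in the E10.5 controls, 3.96 and 3.98 in the E10.5 null libraries. The neural and mesenchymal ranges did not overlap. Mesenchyme was 9.35-fold higher than neural cells (log2 fold change 3.22 ± 0.21, adjusted p = 4.9e-04) and lower than Sox10 cells by 0.80 ± 0.21 on the log2 scale (adjusted p = 0.024, edgeR), a call that 5 alternatives lost, among them those without the first control (-0.61, adjusted p = 0.080), the second control (-0.72, adjusted p = 0.086) or the first null library (-0.82, adjusted p = 0.069).

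Tgfbr3 shared that order. Its Sox10 levels were 9.14 and 9.13 CPM in the E10.5 controls, 6.16 and 5.34 in the E10.5 null libraries, its mesenchymal levels 3.69, 4.53, 2.70 and 3.32, and its neural levels 0.777, 1.12, 0.824 and 0.970. The 3 classes did not overlap in any of these libraries. Mesenchyme differed from neural cells by 1.95 ± 0.16 (adjusted p = 7.2e-04) and from Sox10 cells by -1.05 ± 0.14 (adjusted p = 0.0016, edgeR) on the log2 scale.

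Against neural cells 4 of the 6 genes were called, all higher in mesenchyme, where 46.9% of 15444 genes were called (22.2% higher). Tgfb1 had the widest gap, 16.5-fold (log2 fold change 4.05 ± 0.34, adjusted p = 7.9e-04, edgeR), while Tgfb2, at 29.7, 36.7, 11.3 and 35.5 in mesenchyme and 17.9, 22.2, 13.4 and 19.3 in neural cells, had 0.55 ± 0.19 and did not pass (adjusted p = 0.060), although 6 alternatives called it, among them that without the first null library (0.79, adjusted p = 0.0098). Outside the smooth muscle class, a split made after the data were seen, the values were 0.13 for Tgfb2 (adjusted p = 0.673) and 3.43 for Tgfb1 (adjusted p = 0.0014). The size of the Tgfb1 gap rests on few neural counts. Before thinning, 0.138% and 0.251% of neural cells held a Tgfb1 UMI in the E10.5 controls, 0.114% and 0.533% in the null libraries. Against Sox10 cells 5 of the 6 were called, where 40.7% of 14567 genes were (21.4% higher and 19.3% lower). Here Tgfb1 (2.18 ± 0.32, adjusted p = 0.0022), Tgfbr1 and Tgfb2 (0.40 ± 0.10, adjusted p = 0.018) were higher in mesenchyme, and Tgfbr2 and Tgfbr3 were lower. With the smooth muscle class left out, a split made after the data were seen, the Tgfb2 log2 fold change was -0.02 (adjusted p = 0.930, edgeR). That class had the highest Tgfb2 levels and was taken from the mesenchymal side only, and the 2 fits were not compared by a test. The Tgfb2 difference also missed the threshold without the first control (0.36, adjusted p = 0.069), the second control (0.36, adjusted p = 0.068) or the second null library (0.38, adjusted p = 0.052). Tgfb3 lay near the threshold (0.87 ± 0.29, adjusted p = 0.0525) and passed it in 7 alternatives.

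Detection of both signalling receptors in 1 cell was rare at this depth. After thinning to 5000 UMIs, 5.79% to 25.5% of mesenchymal cells held a Tgfbr1 UMI and 0.565% to 2.09% a Tgfbr2 UMI, and 0.0565% to 0.604% held both, where the product of the shares gives 0.0520% to 0.534%. By library the share with both lay on either side of the product. At E10.5 it was 0.126% against 0.227% in the first null library and 0.604% against 0.534% in the second control. In neural cells the Tgfbr1 share was 8.60% to 27.1% and the Tgfbr2 share 0% to 0.250%. A missing UMI is not a missing transcript in such sparse counts.

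The other genes of the pathway were read in lists of their own, whose counts stand beside 18.9% of all genes called higher in the smooth muscle comparison. In the smooth muscle class all 9 tested genes of the latency and activation list (13 listed) were higher than in other mesenchyme, with a median log2 fold change of 1.40, beside a median of -0.07 over all genes tested. Over 18 alternatives the count was 7 to 10, and 8 without cardiac or endothelial cells. Ltbp1, which anchors latent TGF-beta in the matrix, rose by 3.40 ± 0.13 (adjusted p = 2.5e-09), and stood at 59.6, 80.1, 51.3 and 56.9 CPM in the smooth muscle class of the control and null libraries. Thbs1, an activator of the latent complex, rose by 3.21 ± 0.20 (adjusted p = 1.5e-07, edgeR).

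Of the co-receptors and receptor regulators 4 of 6 were higher (3 to 5 over the alternatives), with a median of 1.29. Eng, the endoglin co-receptor known from endothelium, stood at 26.8, 34.4, 34.9 and 38.9 CPM in the smooth muscle class at E10.5 and rose by 3.59 ± 0.17 (adjusted p = 1.5e-08), and Pmepa1, which binds the receptor-activated SMADs and damps signalling, by 1.73 ± 0.12 (adjusted p = 5.3e-07, edgeR). The endothelial list summed to 53.6, 61.2, 25.6 and 37.5 CPM in the same classes, with Pecam1 as its highest gene, while no cell there held 2 or more UMIs of Cdh5 and Emcn. Its part in the Eng level was not tested.

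Transducers moved little and in both directions: Smad2 rose by 0.44 ± 0.11 (adjusted p = 0.0066), Zfyve9, the SARA anchor that brings SMAD2 to the receptor, by 0.33 ± 0.12 (adjusted p = 0.0497), and Smad3 fell by 0.66 on the log2 scale (SE 0.15, adjusted p = 0.0035, edgeR). The other 4 of 7 did not pass, the median was -0.06, and the rises numbered 0 to 2 over the alternatives. Among feedback genes and repressors 5 of 9 were higher and 1 was lower, with a median of 0.60. Smad6, an inhibitory SMAD that acts mostly on the BMP branch, rose by 3.44 ± 0.12 (adjusted p = 1.2e-09) and Smad7, the inhibitory SMAD of the TGF-beta receptor, by 1.56 ± 0.11 (adjusted p = 3.1e-07), while the repressor Tgif2 fell by 0.68 (SE 0.14, adjusted p = 0.0025, edgeR).

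Of the 12 target genes 11 were higher, with a median of 2.18, and 6 to 11 over the alternatives (10 without cardiac or endothelial cells). Postn, which encodes the matrix protein periostin, stood at 195.1, 273, 151 and 202 CPM in the smooth muscle class at E10.5 against 1.71 and 7.66 at E9.5, and its log2 fold change at E10.5 was 4.51 ± 0.20 (adjusted p = 7.1e-09). Col1a2 did not pass (0.20 ± 0.11, adjusted p = 0.173). These lists hold several matrix and contractile cell genes that smooth muscle is known to express, and their counts do not measure signalling.

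**Figure D3:**
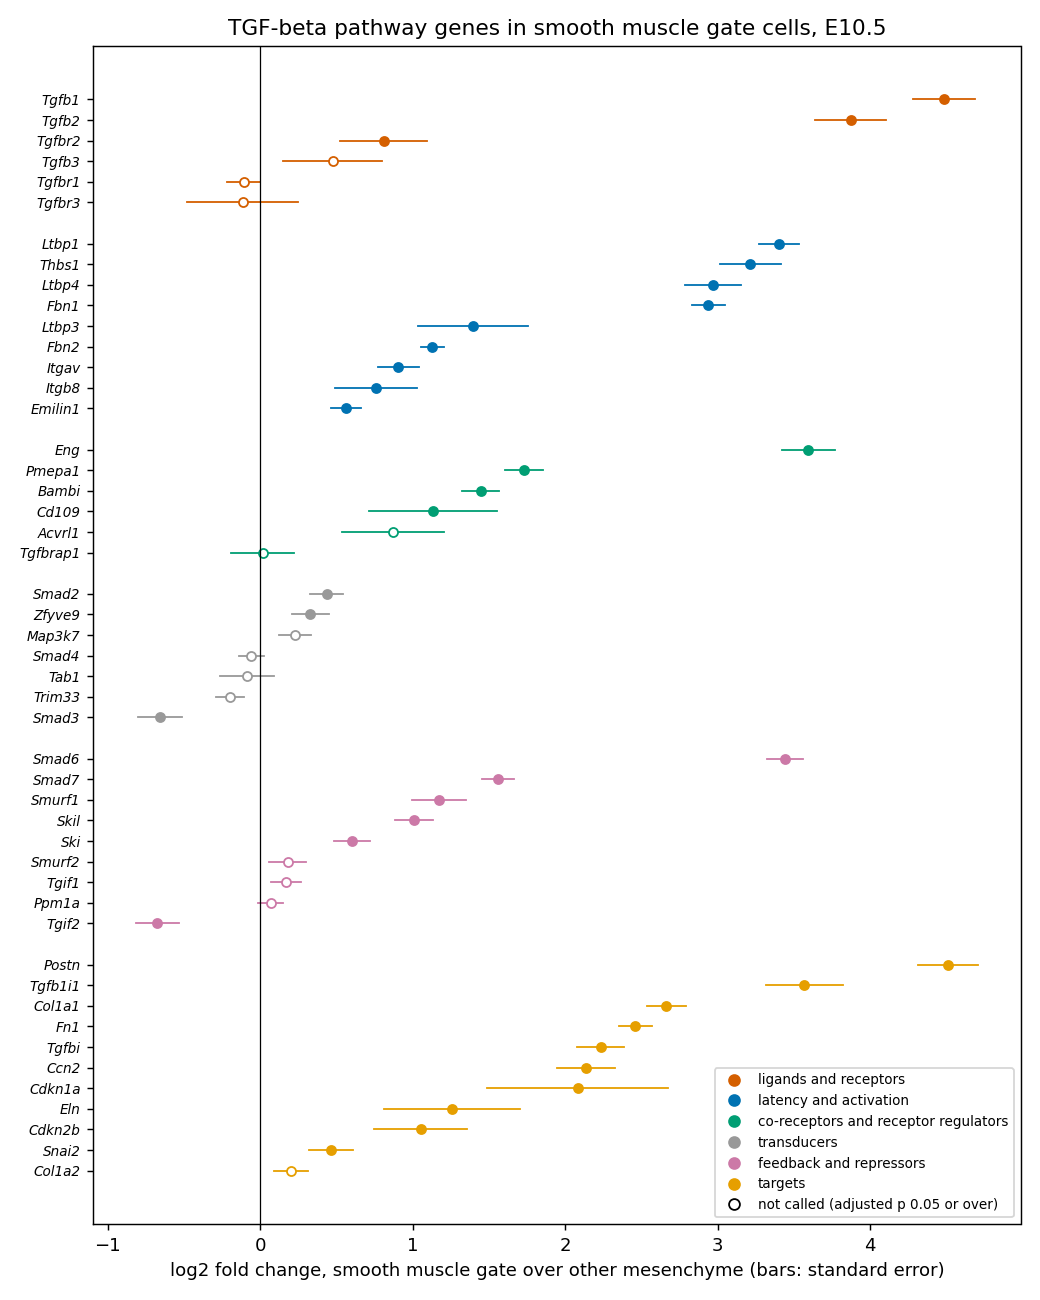
Log2 fold change of the ligands, receptors and pathway genes tested in the smooth muscle class against other mesenchyme at E10.5 (horizontal axis, bars are the standard error), by list, without 1 target gene; filled points passed the threshold of 0.05 on edgeR's adjusted p and open points did not. Tgfb1 at 4.48 and Tgfb2 at 3.87 lie beside Postn and Ltbp1, and Tgfbr1 and Tgfbr3 lie near 0.

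By stage, mesenchymal Tgfb2 was 3.06 and 3.27 CPM in the control and null libraries at E9.5 and 29.7, 36.7, 11.3 and 35.5 in the control and null libraries at E10.5. The stages did not overlap. With genotype in the model, the E10.5 level was 8.72-fold higher (log2 fold change 3.12 ± 0.49 (SE), adjusted p = 0.0088, edgeR). The rise was seen in each part of the mesenchyme that was fitted alone: 2.28 ± 0.23 in the smooth muscle class (adjusted p = 3.1e-04), 2.99 ± 0.56 outside it (adjusted p = 0.013) and 3.15 ± 0.58 in Hox 3 cells (adjusted p = 0.014), all fits added after the data were seen. Foxf1, Hoxa2 and Hox-negative cells were not fitted alone. In Hoxa2 cells the thinned share with a Tgfb2 UMI was 1.07% and 1.20% in the control and null libraries at E9.5. At E10.5 it was 2.38% and 2.50% in the controls and 0.94% and 10.4% in the null libraries, so the stages overlapped. Before thinning the shares were 4.49% and 3.91% at E9.5, then 7.20%, 6.13%, 4.96% and 22.3% in the same order. The first arch was dissected at E9.5 and not at E10.5, so stage and dissected region cannot be told apart in the mesenchymal cells as a whole. A planned fit kept only mesenchymal cells with a Hoxa2 or Hox 3 UMI, and Tgfb2 was called higher at E10.5 there too. Over all 21 alternatives the Tgfb2 log2 fold change was 2.17 to 3.44, and 2 of them lost the call, each without an E9.5 library.

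In all, 5 of the 6 genes were called between the stages, all higher at E10.5, where 24.0% of 16435 genes were called (11.7% higher, with 1925 genes higher and 2021 lower). Tgfb1 rose by 1.76 ± 0.38 (adjusted p = 0.019), Tgfbr3 by 1.50 ± 0.27 (adjusted p = 0.012), Tgfb3 by 1.25 ± 0.27 (adjusted p = 0.019) and Tgfbr2 by 1.04 ± 0.29 (adjusted p = 0.038). Tgfbr1, at 35.5 and 35.2 before and 37.6 to 55.1 after, had 0.35 ± 0.17 and did not pass (adjusted p = 0.159, edgeR). With only 2 libraries at E9.5 the calls are fragile: without the control E9.5 library the value for Tgfb2 was 2.81 (adjusted p = 0.097), without the null E9.5 library 3.44 (adjusted p = 0.052), and in neither case was any of the 6 genes called. Without the first control library at E10.5, Tgfb1 (adjusted p = 0.057), Tgfb3 (0.069) and Tgfbr2 (0.097) also missed the threshold, and Tgfbr2 did so without the second control (0.083) or the second null library (0.059). In the smooth muscle class alone Tgfb1 had 0.71 ± 0.38 (adjusted p = 0.250), or 1.10 ± 0.35 without cardiac and endothelial cells (adjusted p = 0.046).

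Stage differences were also seen outside the mesenchyme, where they were not tested. Tgfb2 stood at 2.18 and 3.91 in E9.5 Sox10 cells, then at 19.5, 24.6, 11.0 and 25.9 a day later, and in neural cells at 4.96 and 4.63, then 17.9, 22.2, 13.4 and 19.3. Tgfbr2 and Tgfbr3 were likewise higher in Sox10 cells at E10.5 than at E9.5 in every library. At E8.5 the single control library gave 4.34 for Tgfb2, 0.363 for Tgfb1, 0.363 for Tgfb3, 18.7 for Tgfbr1, 3.61 for Tgfbr2 and 0.535 for Tgfbr3 in mesenchymal cells, and 12.7 for Tgfb2 in neural cells. That library differs from the others in kit, sequencer and dissected region, so stage cannot be told apart from these.

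**Figure D4:**
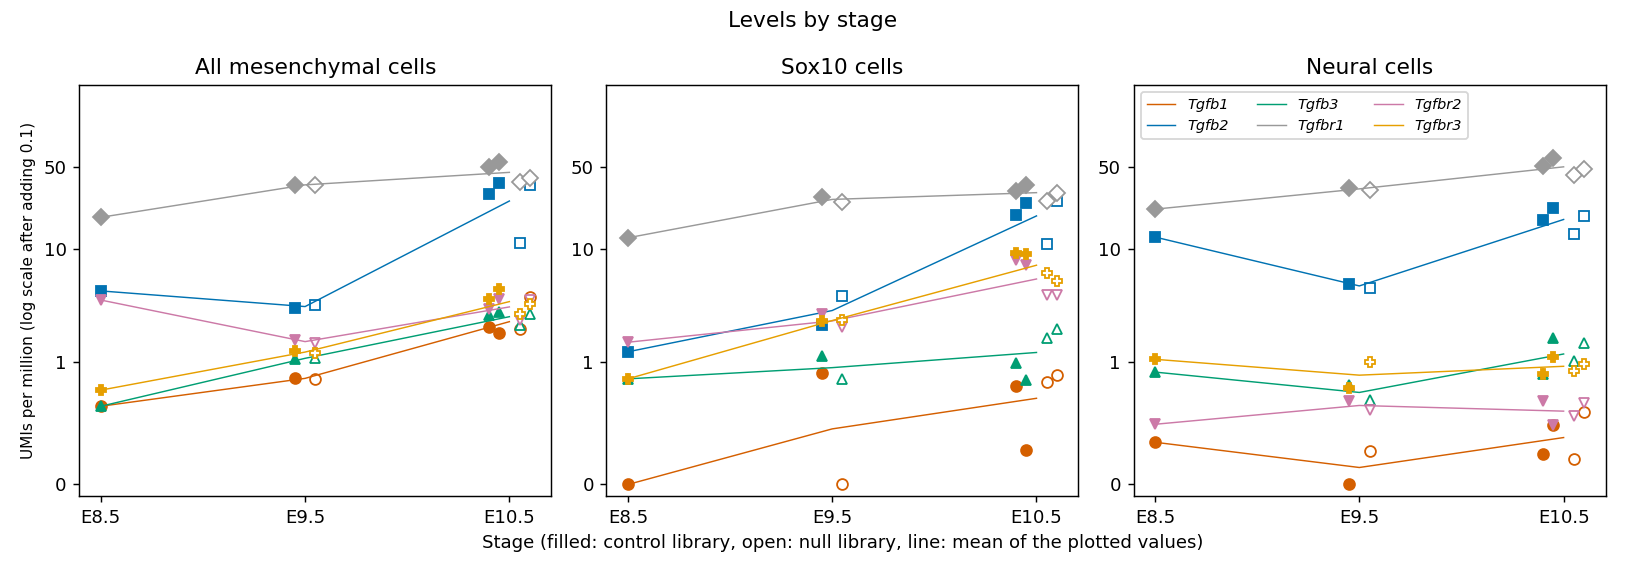
Level of each gene (vertical axis, CPM on a log scale after adding 0.1) by stage in all mesenchymal, Sox10 and neural cells; filled points are control and open points null libraries, and lines join the means of the plotted values. In mesenchyme Tgfb2 went from 3.06 and 3.27 at E9.5 to between 11.3 and 36.7 at E10.5, while neural Tgfbr2 stayed at or below 0.413.

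Of the pathway lists, beside 11.7% of all genes called higher, 5 of 11 tested latency genes were higher at E10.5 in mesenchyme and 1 was lower: Thbs1 rose by 2.12 ± 0.35 (adjusted p = 0.0098), Ltbp4 by 2.01 ± 0.44 (adjusted p = 0.021), and Nrros, a macrophage-lineage latency protein, fell by 1.29 (SE 0.36, adjusted p = 0.041, edgeR). Targets rose in 6 of 12, led by the matrix genes Col1a1 (3.87 ± 0.25, adjusted p = 0.0037) and Eln (2.87 ± 0.36, adjusted p = 0.0062). Pmepa1 (2.07 ± 0.33) was the 1 called co-receptor or regulator of 6, Smad6 (1.19 ± 0.18) and Skil (1.04 ± 0.21) the 2 called feedback genes of 9, and Smad3 (0.73 ± 0.18) the 1 called transducer of 7, all higher at E10.5. The medians were 1.10 for latency genes and 0.79 for targets, beside 0.07 over all genes, and each list had an alternative with no higher call.

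Between the genotypes at E10.5, no ligand or receptor gene passed the test in any of the 7 classes tested, with edgeR or with DESeq2, and 4 of the 39 results had an unadjusted p under 0.05. These were Tgfbr2, Tgfbr3 and Tgfb3 in Sox10 cells and Tgfb1 in the smooth muscle class. In edgeR 1270 of all 12639 genes had such a p in Sox10 cells and 996 of 9781 in the smooth muscle class. The share of all genes called was 0.126% in mesenchymal cells (20 of 15895, with 2389 at an unadjusted p under 0.05), 0.092% in the smooth muscle class, 0.0207% in Hox 3, 0.35% in Hoxa2 and 0.0158% in Sox10 cells, and 0% in Foxf1 and neural cells (1421 and 657 genes at an unadjusted p under 0.05, and 118 and 46 genes called by DESeq2). The same model recovered 35% to 58% of genes changed 2-fold in simulated data and 98% to 100% of those changed 4-fold. The changed genes were drawn only from those above the median level, and their spread between libraries followed the trend by level. These shares therefore do not measure how often a change would be found in a gene of lower level or wider spread. Replicates are libraries of pooled embryos, so the p-values measure the spread between these pools.

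Tgfb2 differed widely between the 2 null libraries. In mesenchymal cells the control mean was 33.2 ± 4.90 (SD, n = 2) and the null mean 23.4 ± 17.1 CPM, from null libraries at 11.3 and 35.5, and the log2 difference was -0.56 ± 0.47 (adjusted p = 0.590, edgeR). In Hox 3 cells the control mean was 30.3 ± 11.5 and the null mean 13.7 ± 10.1, with both null libraries below both controls (log2 difference -1.18 ± 0.51, adjusted p = 0.417). In Hoxa2 cells the control mean was 5.86 ± 0.40 and the null mean 11.5 ± 13.4, and the first null library lay below and the second above the controls (0.86 ± 0.80, adjusted p = 0.644). In the Hoxa2 cells of that second null library the check list of Foxf1 cells summed to 129.7 CPM beside 61.6 to 78.2 in the other 3 libraries, the smooth muscle list to 41.7 beside 15.5 to 24.4 and the endothelial list to 8.65 beside 0.906 to 1.65, and their part in the Tgfb2 level was not tested.

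In mesenchymal, Foxf1, Sox10 and Hoxa2 cells the sign of the Tgfb2 difference depended on which null library was left out. In Hox 3, smooth muscle and neural cells it was negative whichever was left out. Such a fit sets 1 null library against 2 controls and assumes that the lone library varies like the controls, so its p-values rest on the control spread alone. Without the second, it was called lower in null Foxf1 cells (-1.90, adjusted p = 1.3e-08), Hox 3 cells (-2.17, adjusted p = 0.037), Hoxa2 cells (-1.48, adjusted p = 0.013) and Sox10 cells (-1.03, adjusted p = 0.012, edgeR). Without the first, it was called higher in null Hoxa2 cells (1.89, adjusted p = 5.7e-04). These libraries differ in kit, version 3 against 3.1, and in the neural genes found in their mesenchymal cells (Nes, Zic1, Tubb3 and Dcx), which summed to 228 and 674 CPM beside 154.6 and 89.0 in the control libraries. In mesenchymal cells with few neural UMIs, a limit set after the data were seen, the log2 difference for Tgfb2 was -0.09 (adjusted p = 0.959), and by class it was -0.87 in Hox 3, -0.24 in Foxf1, -0.22 in smooth muscle and 0.41 in Hoxa2 cells, none of which passed. In the study's list of libraries, the first null library at E10.5 also has fewer somites than the second and than both controls. The parts of the kit and of somite number were not tested.

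**Figure D5:**
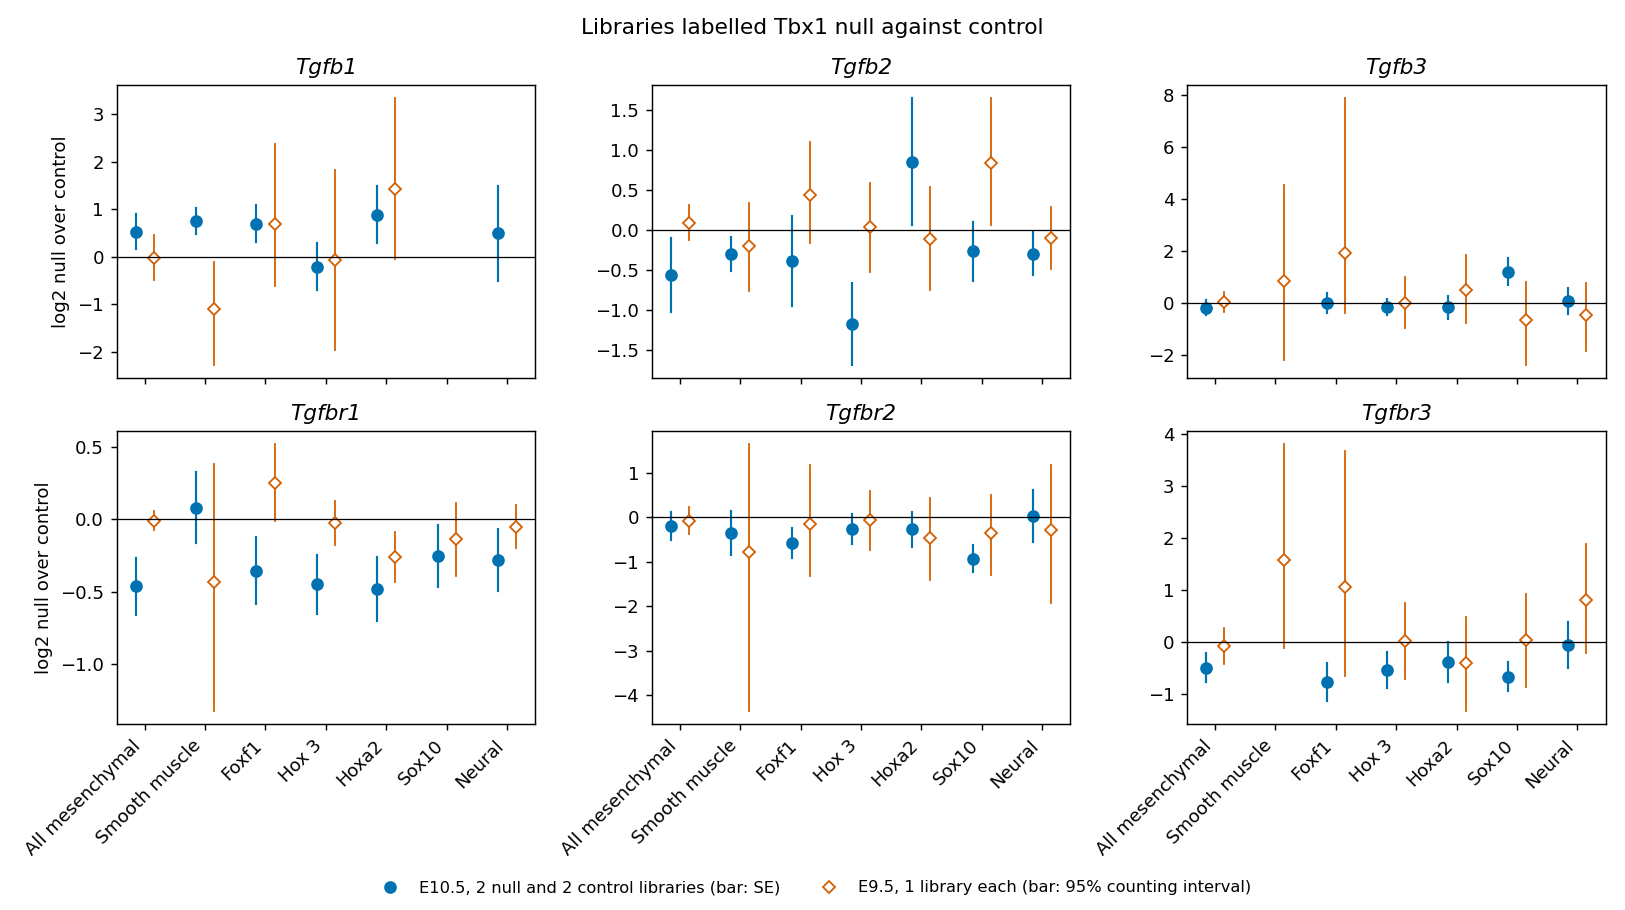
Log2 ratio of libraries labelled Tbx1 null over control for each gene in 7 cell classes; filled circles are the E10.5 fit of 2 against 2 libraries with its standard error, and open diamonds the E9.5 ratio of 1 library each with the 95% counting interval. No E10.5 value passed edgeR's adjusted p, and Tgfb2 ran from -1.18 in Hox 3 cells to 0.86 in Hoxa2 cells.

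Tgfb1 in the smooth muscle class was higher in both null libraries, 41.4 ± 4.54 (SD, n = 2) against 26.3 ± 5.96 CPM, with a log2 difference of 0.76 ± 0.28 (adjusted p = 0.409, edgeR). Tgfb2 in the same cells was lower in both, 239 ± 0.63 against 314 ± 47.6 (-0.30 ± 0.22, adjusted p = 0.667). Over 17 alternatives the Tgfb2 value ran from -0.41 to 0.06, and 1 of them changed its sign. Neither difference passed the test.

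For the receptors, Tgfbr1 lay lower in both null libraries than in both controls in every class but smooth muscle, where it was 40.5 ± 0.33 against 40.9 ± 2.88 (SD, n = 2). In mesenchymal cells it was 39.0 ± 1.95 against 52.5 ± 3.73 (log2 difference -0.46 ± 0.20, adjusted p = 0.337, edgeR), in neural cells 45.8 ± 3.59 against 55.7 ± 5.69 (-0.28 ± 0.21, adjusted p = 0.919). Neither passed, and the difference between the mesenchymal and the neural genotype effect was -0.19 ± 0.14 (adjusted p = 0.649), in a test that called 0.086% of 16286 genes and none of the 6. Genes known from Sox10 cells were higher in the mesenchymal cells of both null libraries, Ednrb at 17.4 and 32.7 CPM against 6.43 and 2.60 in the controls, Foxd3 at 9.77 and 9.39 against 0.485 and 0.541 and Erbb3 at 5.44 and 9.31 against 2.32 and 2.33, and their part in these differences was not tested. Mesenchyme genes (Pdgfra, Col3a1, Dlx2 and Alx1) summed to 279.1 and 232.2 CPM in the mesenchymal cells of the null libraries and to 341.7 in each control. The blood list stood at 0.0446 and 7.20 in the null libraries, 0.0766 and 0.867 in the controls. The part of these 2 lists was not tested either. In mesenchymal cells with few neural UMIs the values were -0.38 for Tgfbr1 (adjusted p = 0.495) and -0.19 for Tgfbr3 (adjusted p = 0.822). In Sox10 cells Tgfbr2 was 3.97 ± 0.01 in the null and 7.63 ± 0.49 in the control libraries (-0.93 ± 0.30, adjusted p = 0.385), and Tgfbr3 5.75 ± 0.58 against 9.14 ± 0.01 (-0.66 ± 0.27, adjusted p = 0.464). Tgfb3 was 1.84 ± 0.25 in the null and 0.827 ± 0.21 in the control libraries (1.20 ± 0.52, adjusted p = 0.476), and Tgfb1, at 0.638 and 0.763 against 0.584 and 0.0972 from 1 to 20 UMIs, had too few counts to be tested. None of these differences passed.

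Groups that do not overlap were common among all genes in a design of 2 against 2. The members counted here are those that were tested, as were the genes behind each share. In mesenchymal cells 2 of the 6 (Tgfbr1 and Tgfbr3) lay lower in both null libraries, where 24.8% of all genes did. In Sox10 cells 3 of 5 lay lower and 1 higher, where 21.5% of all genes did each. In Foxf1 cells 3 lay lower and 1 higher, where 25.1% and 20.1% did, in Hox 3 cells 2 lay lower, where 23.7% did, and in neural cells 1 lay lower, where 16.4% did. In Hoxa2 cells 1 lay lower and 1 higher, where 26.9% and 21.5% did, and in the smooth muscle class 2 of 4 lay lower and 1 higher, where 26.5% of genes lay lower and 15.9% higher.

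Among the pathway genes, 1 passed in 1 class: Tgfb1i1, which encodes the focal adhesion protein Hic-5, was higher in null Hoxa2 cells (2.05 ± 0.29, adjusted p = 0.034, edgeR). It was 1 of 11 target genes tested in that class, where 0.35% of all 13431 genes were called. It was called in 13 of 14 alternatives and lost with gates set on thinned cells (1.78, adjusted p = 0.110), and 0 to 4 target genes were called higher in that class over the alternatives. Its values in mesenchymal (1.28 ± 0.31, adjusted p = 0.221), Hox 3 (1.36 ± 0.37, adjusted p = 0.334) and smooth muscle cells (0.25 ± 0.22, adjusted p = 0.725) did not pass.

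At E9.5, with 1 library per genotype, there is no replicate check and no test, and the intervals cover counting error only. In mesenchymal cells the log2 ratio of null over control was -0.02 (95% interval -0.48 to 0.46) for Tgfb1, 0.10 (-0.12 to 0.31) for Tgfb2, 0.04 (-0.33 to 0.41) for Tgfb3, -0.01 (-0.07 to 0.05) for Tgfbr1, -0.08 (-0.39 to 0.23) for Tgfbr2 and -0.07 (-0.42 to 0.28) for Tgfbr3. All 6 intervals held 0. Intervals that did not were found for Tgfb1 in the smooth muscle class (-1.10, -2.28 to -0.10, from 31 and 11 UMIs), Tgfb2 in Hox-negative cells (0.39, 0.04 to 0.74) and in Sox10 cells (0.84, 0.06 to 1.65), and Tgfbr1 in Hoxa2 cells (-0.26, -0.43 to -0.08), and Tgfb1 in Sox10 cells had 9 UMIs in the control and 0 in the null library. The first of these included the cardiac-marked cells given above, without which the levels were 17.4 and 13.1. How many of all genes had an interval without 0 in these classes was not counted, so these results have no background share beside them.

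Over the 47 library by class profiles, the genes whose log2 levels ran most like each member were ranked by Pearson's r among 8135 genes that reached 20 CPM in some profile. For Tgfb1 they were Gata6 (0.957), Ecm1 (0.946) and Glipr2 (0.943), and for Tgfb2 they were Gucy1b1 (0.930), Mpp2 (0.909) and Myo6 (0.901). Tgfb1 and Tgfb2 themselves had an r of 0.805. For Tgfb3 the list was Tmem263 (0.869), Col1a1 (0.852) and Synpo (0.852), for Tgfbr1 Trps1 (0.932), Bcr (0.931) and Mex3b (0.925), for Tgfbr2 Itsn2 (0.876), Sept8 (0.875) and Sh3pxd2a (0.871), and for Tgfbr3 Utrn (0.828), Dkk2 (0.801) and Col4a1 (0.797). Profiles of 1 library share its depth and chemistry, profiles of 1 class share its cells, and the class of all mesenchymal cells was left out, so these values describe the order of levels and nothing else.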

How the data were processed

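The authors aligned the reads of each 10x Genomics library with Cell Ranger 6.0.1 to mm10 and deposited UMI counts per gene and barcode, 1 matrix for each of the 7 libraries. Replicates were not pooled. Barcodes under 1000 genes or over 10% mitochondrial UMIs were dropped, and doublets were ranked by Scrublet (scanpy 1.11.5) and the top 0.8% per 1000 barcodes removed. Counts were summed per library and cell class. Levels of the classes are CPM with TMM scaling, for classes of 20 or more cells, with exact Poisson 95% intervals. The levels of Tbx1 and those by contractile UMIs were scaled to total UMIs without TMM, so they are not on the same scale as the class levels. Differences were tested on the sums with edgeR 4.0.16 (R 4.3.3; TMM, filterByExpr, glmQLFTest) with Benjamini-Hochberg adjustment over all genes tested and a threshold of 0.05. Cell class comparisons had the library as a block, and the stage comparison genotype as a term. With 1 library at E8.5 and 1 per genotype at E9.5, neither E8.5 nor the genotypes at E9.5 were tested. The scripts were tested on simulated counts.

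Alternatives were DESeq2 1.42.0, its size factors, no filter on low counts, other cell filters, gates and depths, and each library left out. The members, gene lists and gates were chosen with earlier results of these data known. From each pathway list, the 2 largest called rises and falls in a mesenchymal or smooth muscle comparison are named, and for each member the 3 most alike genes. 1 target gene stays in the counts of its list and is not reported here by itself. Figures were drawn with matplotlib 3.10.9 in Python 3.11.15.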

Additional observations from a re-analysis of the deposited data

How the results depend on the processing

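Of 81 results for the 6 genes, 22 passed the threshold, and 11 of these were called under every alternative. Of the 59 that did not pass, 8 did so under some alternative. The number of the 6 genes called moved by over 1.5 times in these comparisons. In Hox 3 against Hoxa2 cells it was 2, and 1 with DESeq2, with no Sox10 UMI allowed in the mesenchymal gate, or with 6 libraries, and 0 to 1 when a library was left out. In mesenchyme against Sox10 cells it was 5, and 3 to 4 with a library left out (4 to 6 under the others). Between the stages it was 5, and 1 in the smooth muscle class alone, 2 there without cardiac or endothelial cells (both added after seeing the data), and 0 to 5 with a library left out. Between the genotypes it was 0, and 0 to 1 with a library left out in Sox10, Foxf1, Hox 3 and Hoxa2 cells. It moved less in smooth muscle against other mesenchyme (3, and 2 to 4), in Foxf1 cells against other mesenchyme (3, and 2 to 3) and in mesenchyme against neural cells (4, and 4 to 5). A sign was reversed, with a call in either fit, for Tgfb2 between the genotypes in Hoxa2 cells (-1.48 to 1.89 with a library left out, -1.48 without the second null library) and in mesenchyme against Sox10 cells outside the smooth muscle class (-0.0209). Of the other results, 30 changed sign under some alternative with no call in either fit. Where leaving out a library left 1 in its group, that one is assumed to vary like the other group. The cause was not tested.

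Replicate numbers were shared by the 2 control and 2 null libraries at E10.5, but nothing ties equal numbers to a shared day or litter, and their deviations correlated at 0.026 to 0.453 in the 7 classes. With the replicate number as a block, 0 of the 6 genes were called in each class, and all-gene calls rose from 20 to 186 in mesenchymal, 2 to 111 in Sox10, 0 to 213 in neural, 0 to 226 in Foxf1, 3 to 52 in Hox 3, 47 to 303 in Hoxa2 and 9 to 190 in smooth muscle cells. DESeq2 called 719 genes in mesenchymal, 74 in Sox10, 46 in neural, 118 in Foxf1, 206 in Hox 3, 373 in Hoxa2 and 13 in smooth muscle cells. Over the other settings the all-gene count in mesenchymal cells ran from 5 to 1400, and between the stages, where it was 3946, from 902 to 5285, and from 0 to 4933 with a library left out. Tgfb1 in Sox10 cells and Tgfb3 and Tgfbr3 in the smooth muscle class had too few counts to be tested between the genotypes.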

Other observations

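The pathway lists also differed between mesenchyme and the neural and Sox10 classes at E10.5. Against neural cells, where 46.9% of all genes were called and 22.2% were higher in mesenchyme, 7 of 10 tested latency genes were higher in mesenchyme and 1 was lower: Emilin1 by 4.40 ± 0.29 (adjusted p = 4.9e-04) and Fbn2 by 2.97 ± 0.16 (adjusted p = 3.7e-04) were higher, and Itgb8, the integrin subunit that frees TGF-beta from its latent complex, was lower (-2.34 ± 0.21, adjusted p = 9.7e-04, edgeR). Of the co-receptors and regulators 4 of 6 were higher, led by Eng (5.04 ± 0.26) and the type I receptor Acvrl1 (4.65 ± 0.39), and Tgfbrap1 was lower (-0.51 ± 0.08). Among 12 targets 9 were higher, led by Col1a1 (5.22 ± 0.25) and Snai2 (5.18 ± 0.41), and the cell cycle inhibitor genes Cdkn2b (-1.20 ± 0.21) and Cdkn1a (-0.76 ± 0.15) were lower. Feedback genes and repressors had 4 higher and 1 lower of 9, with Smad6 (1.76 ± 0.19) and Tgif1 (0.74 ± 0.16) higher and Skil (-0.70 ± 0.08) lower. Of 7 transducers Map3k7 (0.23 ± 0.07) was higher and Smad3 (-0.34 ± 0.09) lower.

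Against Sox10 cells, 21.4% of all genes were higher in mesenchyme and 19.3% lower. Of 10 latency genes 6 were higher and 1 lower, with Thbs1 (3.11 ± 0.18) and Ltbp4 (2.06 ± 0.21) higher and Itgb8 (-0.94 ± 0.27) lower. The regulators had 2 higher and 2 lower of 6: Bambi, a decoy receptor, was higher in mesenchyme (1.76 ± 0.06, adjusted p = 1.4e-05) with Eng (1.21 ± 0.26), and Pmepa1 (-2.12 ± 0.07, adjusted p = 1.5e-05, edgeR) and Tgfbrap1 (-0.56 ± 0.12) were lower. Of 12 targets 9 were higher, led by Col1a1 (4.74 ± 0.22) and Snai2 (4.50 ± 0.19), and 2 lower, the latter being Postn (-2.47 ± 0.23) and Col1a2 (-0.72 ± 0.11). Smad6 (2.11 ± 0.13), Smad7 (1.51 ± 0.05), Smad3 (0.72 ± 0.07) and Zfyve9 (0.30 ± 0.07) were higher in mesenchyme, and Ski (-0.23 ± 0.06) was lower. Smad3 thus stood above Sox10 cells and below neural cells.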
